A study of Homo sapiens with 16 samples.

Results

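Differentiated HL-60 cells (dHL-60) given lipoteichoic acid (LTA) of Staphylococcus aureus at 10 µg/ml for 24 h were compared with dHL-60 given LTA at 1 µg/ml for 24 h. HL-60 is an established human promyelocytic leukaemia line, and the labels give the cells' genotype as wild type, differentiated. Each dose had 2 libraries of whole-cell RNA, so the comparison rests on 4 of the 16 libraries of the series, chosen by cell state, dose and time and not by any measured value. Untreated dHL-60 at 24 h (2 libraries) and dHL-60 at 4 h (untreated, 1 µg/ml and 10 µg/ml, 2 libraries each) are given beside them, and all 12 dHL-60 libraries were fitted together to estimate the spread. Which agent differentiated the cells is not stated in the labels. The labels do not tell whether the 2 libraries of a group stem from different cultures, and the p-values below reflect the variation among these libraries alone, possibly technical. In bulk RNA, a change in the share of a cell type and a change in RNA per cell cannot be told apart.

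LTA is a glycolipid polymer anchored in the membrane of Gram-positive bacteria. It is sensed by TLR2, which works with TLR1 or TLR6 and is served by the coreceptor CD14. The signal passes through the adaptor MYD88 and the IRAK kinases to NF-κB, which switches on cytokine and chemokine genes and also its own inhibitors. Most of these messages are short-lived, so the level at 24 h is that of a late phase of the response.

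The 4 libraries held 11890690 to 13964246 gene counts. Levels below are given as CPM, a library's counts scaled to a total of 1000000 after adjustment by TMM factors, and differences are log2 fold changes, 10 minus 1 µg/ml, ± SE. The 2 libraries of each dHL-60 group differed by more than sampling noise, with chi-square values of 10.31 to 18.91 per degree of freedom, and were kept as separate samples. Neutrophil markers were present in these cells: in the 4 libraries ITGAM stood at 188 to 256 CPM and CYBB, a subunit of the NADPH oxidase, at 813 to 1040 CPM. FCGR3B and CXCR1, markers of fully mature blood neutrophils, stood under 1 CPM in all 4, and the promyelocyte granule gene MPO remained at 4234 to 8087 CPM.

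At 24 h the genes higher with 10 µg/ml included 12 of 24 cholesterol synthesis and uptake genes, 10 of 16 chemokines and 7 of 26 cytokines, counts that fell when single libraries were left out. Of 11866 genes tested, 359 were higher (3.03%) and 94 lower (0.792%) with 10 µg/ml at an adjusted p under 0.05, and 183 of the higher and 20 of the lower genes differed by more than 2-fold. Both directions together came to 453 genes (3.82%). At an unadjusted p under 0.05 there were 1496 higher and 1174 lower genes. The libraries of the 2 doses did not overlap for any of the 453 called genes, but the same held with both 10 µg/ml libraries on top for 29.4% of all genes tested and with both below for 28.1%. The calls leaned on single libraries. Each total that follows counts the genes called in its own fit, which can include genes not called in the full fit. There were 170 higher and 21 lower genes without 1 µg/ml replicate 1, 45 and 4 without 1 µg/ml replicate 2, 73 and 2 without 10 µg/ml replicate 1, and 392 and 275 without 10 µg/ml replicate 2. The 10 µg/ml replicate 1 lay farther from the 1 µg/ml mean than replicate 2 for 368 of the 453 genes. This was not particular to the called genes. Over genes called or not, its median absolute log2 difference from the 1 µg/ml libraries was 0.34 and 0.32, against 0.23 and 0.20 for replicate 2. In each fit that left out a library, the lone library of a dose was taken to vary like the other groups. Called in the full fit and in all 4 of those fits were 38 genes, 37 higher and 1 lower (ABCA1). Other called genes described below lost their call without at least 1 library, and the values or the list's count without it are given beside them.

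**Figure D1:**
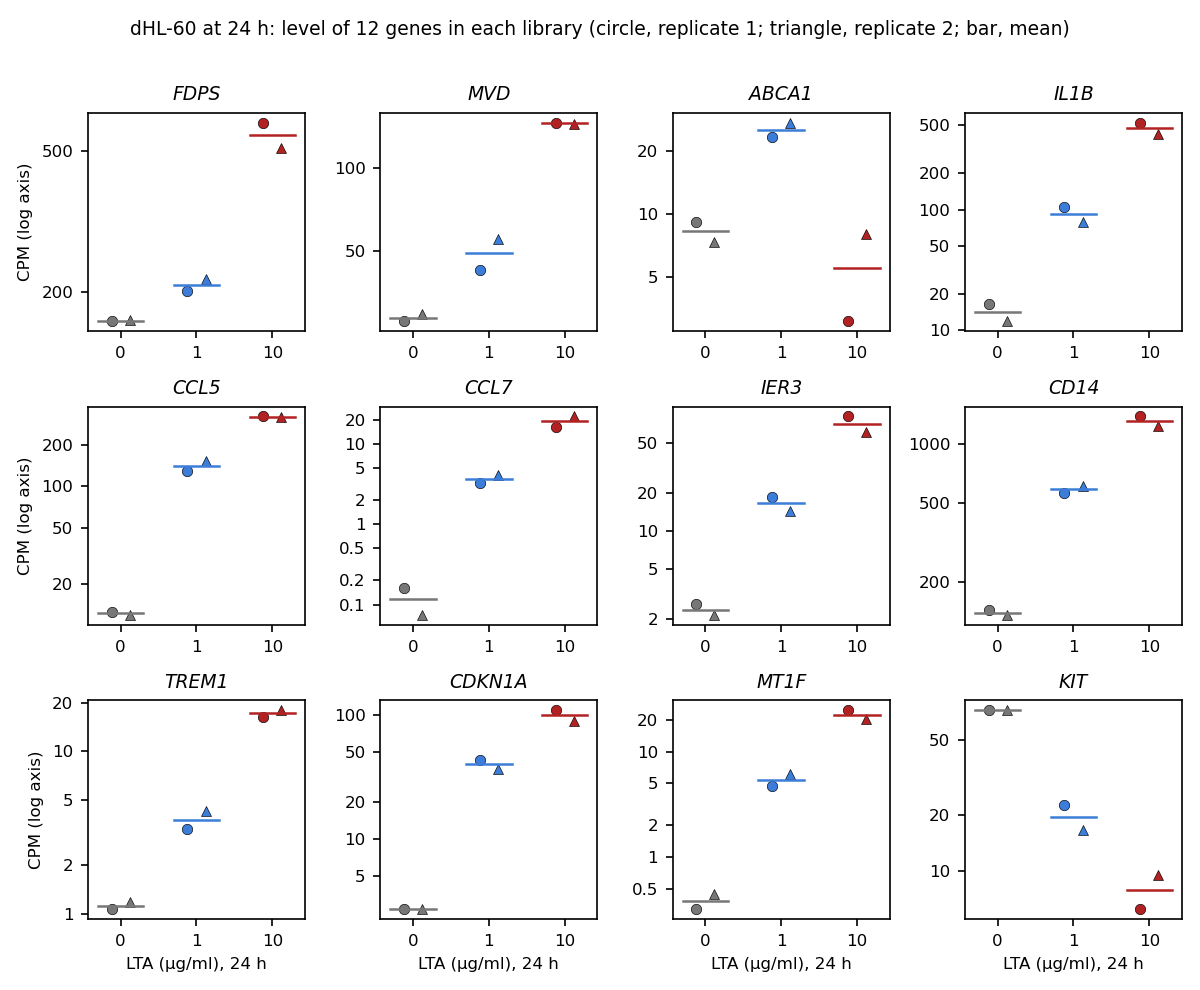
Level at 24 h of 12 genes in dHL-60, in CPM on a log axis, against LTA dose in µg/ml, with 1 point per library (circle, replicate 1; triangle, replicate 2) and a bar at the group mean. In each panel the 2 libraries with 10 µg/ml lie apart from the 2 with 1 µg/ml; ABCA1 stands at 23.2 and 27.2 CPM with 1 µg/ml and at 3.05 and 7.95 CPM with 10 µg/ml, and KIT also falls.

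Among the sensors of LTA, the coreceptor CD14 and the receptor TLR2 were higher with the larger dose, and TLR1 and TLR6 were not called. CD14 (chromosome 5, 140631732 to 140633701, GRCh38) stood at 564 and 615 CPM with 1 µg/ml, at 1375 and 1232 CPM with 10 µg/ml and at 145 and 136 CPM untreated. Both high-dose libraries lay above both others, and the difference was 1.14 ± 0.15 (2.21-fold, adjusted p = 0.00147). TLR2 stood at 158 and 123 CPM with 1 µg/ml and at 223 and 232 CPM with 10 µg/ml, a difference of 0.70 ± 0.16 (adjusted p = 0.0277). Its call was lost without 1 µg/ml replicate 2 (adjusted p = 0.233), 10 µg/ml replicate 1 (0.144) or 10 µg/ml replicate 2 (0.0623). The libraries of the 2 doses overlapped for TLR1, at 42.5 and 33.4 CPM against 28 and 40.3 CPM, and for TLR6, at 34.1 and 28.6 CPM against 25.6 and 31.9 CPM. The differences were -0.15 ± 0.19 for TLR1 (adjusted p = 0.671) and -0.12 ± 0.19 for TLR6 (adjusted p = 0.74), and each turned positive without 1 µg/ml replicate 1 or without 10 µg/ml replicate 1. MYD88, the shared adaptor, differed by 0.38 ± 0.14 (adjusted p = 0.148).

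Downstream of MYD88, the kinase IRAK2, itself induced by Toll-like receptor signals, was at 6.6 and 4.65 CPM with 1 µg/ml, at 24.4 and 22.8 CPM with 10 µg/ml and at 1.22 and 0.588 CPM untreated. The difference was 2.07 ± 0.26 (4.2-fold, adjusted p = 0.000934). In all, 3 of 23 tested members of the Toll-like receptor signalling list were higher (13%) and 0 lower, with a median difference of 0.03 against 0.0017 over all genes tested. The called members were CD14, TLR2 and IRAK2, with the constitutive kinases IRAK1 (-0.14) and IRAK4 (0.04) and the ligase TRAF6 (-0.11) not called.

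Some inhibitors and early targets of NF-κB were higher with 10 µg/ml, and no NF-κB subunit was called. Of 24 tested members of the NF-κB list (subunits, inhibitors, early target genes), 7 were higher (29.2%) and 0 lower, with a median of 0.72. IER3, an early response gene that modulates NF-κB and cell survival, stood at 18.7 and 14.6 CPM with 1 µg/ml, at 81.7 and 61.9 CPM with 10 µg/ml and at 2.61 and 2.13 CPM untreated. Its difference of 2.11 ± 0.28 (4.32-fold, adjusted p = 0.00137) was the only call of the list that held without each of the 4 libraries. TRAF1, an adaptor of TNF receptors, differed by 1.29 ± 0.19 (adjusted p = 0.00265; 0.0578 without 1 µg/ml replicate 2). The inhibitor TNIP1 differed by 1.16 ± 0.20 (adjusted p = 0.00677; 0.122 without 1 µg/ml replicate 2 and 0.0776 without 10 µg/ml replicate 1). BCL3, NFKBID, NFKBIZ and TNIP3 made up the rest. NFKB1 (0.29), RELA (0.45) and REL (-0.45) did not pass, nor did NFKBIA, the gene of IκBα, at 497 and 351 against 933 and 778 CPM (1.01 ± 0.27, adjusted p = 0.0522). The count was 5 without 1 µg/ml replicate 1, 1 without 1 µg/ml replicate 2, 2 without 10 µg/ml replicate 1 and 6 without 10 µg/ml replicate 2.

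Cytokines of the IL-1 family and EBI3 stood out among 26 tested cytokine genes, of which 7 were higher (26.9%) and 0 lower, with a median of 1.10. IL1B (chromosome 2, 112829751 to 112836779), the precursor of IL-1β, stood at 105 and 79.5 CPM with 1 µg/ml, at 528 and 425 CPM with 10 µg/ml and at 16.5 and 11.8 CPM untreated. Its 5.17-fold difference (2.37 ± 0.31, adjusted p = 0.0013) kept both high-dose libraries far above the rest. EBI3, a subunit shared by IL-27 and IL-35, stood at 46.9 and 36.5 CPM with 1 µg/ml, at 178 and 118 CPM with 10 µg/ml and at 2.08 and 1.54 CPM untreated (1.83 ± 0.22, adjusted p = 0.000685). IL1A rose by 1.83 ± 0.28 (adjusted p = 0.00397; 0.0775 without 1 µg/ml replicate 2). TNF was at 57.7 and 55.9 CPM with 1 µg/ml and at 148 and 151 CPM with 10 µg/ml, close replicates whose difference of 1.40 ± 0.27 (adjusted p = 0.0126) nonetheless lost its call without 1 µg/ml replicate 1 (0.0842), 1 µg/ml replicate 2 (0.137) or 10 µg/ml replicate 1 (0.0658). IL1RN, the antagonist of the IL-1 receptor, OSM and TNFSF10 were the other called cytokines. IL6, IL12B and CSF3 stood at no more than 0.558 CPM in any of the 4 libraries, where depth limits any comparison. The cytokine count was 4 without 1 µg/ml replicate 1, 2 without 1 µg/ml replicate 2, 3 without 10 µg/ml replicate 1 and 4 without 10 µg/ml replicate 2.

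Chemokines gave the highest share of any list with more than 5 tested members: 10 of 16 were higher (62.5%), 0 were lower, all 16 differences were positive and the median was 1.41. CCL7 (chromosome 17, 34270221 to 34272242), an attractant of monocytes, stood at 3.23 and 4.06 CPM with 1 µg/ml, at 16.2 and 22 CPM with 10 µg/ml and at 0.16 and 0.0735 CPM untreated. The difference was 5.21-fold (2.38 ± 0.21, adjusted p = 0.00016). CCL5, which attracts T cells and monocytes, stood at 129 and 152 CPM with 1 µg/ml, at 318 and 314 CPM with 10 µg/ml and at 12.7 and 11.9 CPM untreated (1.17 ± 0.15, adjusted p = 0.000934). For both genes the doses were ordered untreated, 1 and 10 µg/ml with no overlap between libraries. CCL20, the ligand of CCR6, differed by 10.5-fold (3.39 ± 0.47, adjusted p = 0.00192; 0.0559 without 1 µg/ml replicate 2), from 0.734 and 0.393 CPM to 7.96 and 4.04 CPM. The neutrophil attractant CXCL8 stood at 306 and 248 CPM with 1 µg/ml and at 836 and 1029 CPM with 10 µg/ml (1.75 ± 0.34, adjusted p = 0.0136; 0.0653 without 1 µg/ml replicate 1 and 0.161 without 1 µg/ml replicate 2). CCL3 and CCL4, whose reads can be shared with near-identical copies, and CCL2, CXCL2, CXCL3 and CXCL16 completed the called genes. The interferon-induced CXCL10 stood at no more than 0.147 CPM in each of the 4 libraries. Chemokine calls numbered 9 without 1 µg/ml replicate 1, 2 without 1 µg/ml replicate 2, 7 without 10 µg/ml replicate 1 and 10 without 10 µg/ml replicate 2.

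Promoters of called members of the chemokine and NF-κB lists are shown for the NF-κB site they hold. RefSeq promoters of GRCh38.p14, 250 bases before to 50 after the start, were searched on both strands for 2 spellings of an NF-κB site, which read GGGA, then C or A, then TTTCC. One or the other was found in 3 of 12 chemokine promoters (25%), in 5 of 21 promoters of the NF-κB list (23.8%) and in 0.336% of all 35116 promoters. It was found in 0.433% of the promoters of genes tested and in 5 of 270 promoters of genes called higher (1.85%). Of the 8 members of the 2 lists that hold it, 5 were not called: NFKB1, REL, NFKBIA, TNFAIP3 (0.74 ± 0.28, adjusted p = 0.144) and CXCL5 (1.12 ± 0.49, adjusted p = 0.201). The called members that hold one, CXCL2, CXCL3 and NFKBIZ, were picked for printing after their values were seen, and the matches are in capitals. Shown are the 250 bases before each start, at chr4:74099196-74099445 and chr4:74038690-74038939 on the minus strand and chr3:101827740-101827989 on the plus strand.
CXCL2: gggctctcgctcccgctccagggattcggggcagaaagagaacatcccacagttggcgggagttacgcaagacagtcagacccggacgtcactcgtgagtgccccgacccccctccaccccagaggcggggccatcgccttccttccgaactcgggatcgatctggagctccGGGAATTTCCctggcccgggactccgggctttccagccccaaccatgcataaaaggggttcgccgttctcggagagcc
CXCL3: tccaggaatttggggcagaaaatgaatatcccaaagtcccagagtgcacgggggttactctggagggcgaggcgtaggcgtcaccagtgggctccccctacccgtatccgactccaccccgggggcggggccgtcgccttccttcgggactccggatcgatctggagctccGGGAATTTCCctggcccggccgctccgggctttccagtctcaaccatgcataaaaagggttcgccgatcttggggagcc
NFKBIZ: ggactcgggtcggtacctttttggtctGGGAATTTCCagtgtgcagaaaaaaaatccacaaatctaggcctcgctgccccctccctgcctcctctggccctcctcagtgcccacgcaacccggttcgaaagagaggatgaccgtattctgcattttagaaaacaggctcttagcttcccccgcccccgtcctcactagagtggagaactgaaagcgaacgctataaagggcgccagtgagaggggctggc
The neighbouring genes CXCL2 and CXCL3 hold the match at nearly the same distance from the start. CXCL2 stood at 5.65 and 3.47 CPM with 1 µg/ml and at 17.3 and 12.4 CPM with 10 µg/ml (1.70 ± 0.28, adjusted p = 0.00534; 0.107 without 1 µg/ml replicate 2 and 0.058 without 10 µg/ml replicate 1). CXCL3 stood at 6.53 and 4.13 CPM against 21.6 and 18.5 CPM (1.91 ± 0.27, adjusted p = 0.00243; 0.0595 without 1 µg/ml replicate 2). NFKBIZ, which encodes the atypical NF-κB regulator IκBζ, stood at 24.6 and 12 CPM against 41.4 and 41.3 CPM (1.18 ± 0.30, adjusted p = 0.0425). Its call was lost without 1 µg/ml replicate 2 (0.75, adjusted p = 0.258), 10 µg/ml replicate 1 (0.192) or 10 µg/ml replicate 2 (0.0626), and its difference was 1.79 without 1 µg/ml replicate 1.

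Of 34 interferon-stimulated genes tested, 5 were higher (14.7%) and 0 lower, with a median of 0.46. GBP2, a guanylate-binding protein of cell-autonomous immunity, stood at 9.98 and 15.6 CPM with 1 µg/ml, at 26.3 and 33.3 CPM with 10 µg/ml and at 0.958 and 0.955 CPM untreated (1.22 ± 0.20, adjusted p = 0.00478), and was the 1 member called in all 4 fits without a library. The transcription factor IRF1, GBP5, IFI6 and IFIT1 were the others. IFIT1 rested on 53 counts with 10 µg/ml and 11 with 1 µg/ml in 2 libraries each. The transcription factor STAT2 (0.18) and the antiviral genes MX1 (0.47) and ISG15 (0.60) did not pass. The count was 1 without 1 µg/ml replicate 1, without 1 µg/ml replicate 2 or without 10 µg/ml replicate 1, and 5 without 10 µg/ml replicate 2. The core of the interferon-stimulated response element, GAAA followed after any 2 bases by GAAA, was searched on both strands and found in 16 of the list's 24 promoters (66.7%) and in 3.57% of all promoters. It was found in 3.33% of the promoters of genes called higher, a share near that over all promoters. Shown are the 250 bases before the start of the 2 called members that hold it, IFIT1 (chr10:89392373-89392622, plus strand, matches on the minus strand) and IFI6 (chr1:27672193-27672442, minus strand), picked after their values were seen, with matches in capitals.
IFIT1: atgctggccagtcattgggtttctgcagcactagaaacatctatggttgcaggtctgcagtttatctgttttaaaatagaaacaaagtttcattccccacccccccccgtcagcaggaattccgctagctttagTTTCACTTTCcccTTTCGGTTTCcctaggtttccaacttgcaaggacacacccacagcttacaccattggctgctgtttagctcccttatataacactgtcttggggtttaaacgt
IFI6: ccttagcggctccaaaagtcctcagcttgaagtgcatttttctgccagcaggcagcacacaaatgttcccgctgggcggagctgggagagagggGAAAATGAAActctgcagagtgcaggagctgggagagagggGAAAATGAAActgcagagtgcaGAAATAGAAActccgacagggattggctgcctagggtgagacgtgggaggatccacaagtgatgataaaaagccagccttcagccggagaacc
IFI6 stood at 2.86 and 3.87 CPM with 1 µg/ml and at 8.38 and 7.6 CPM with 10 µg/ml (1.24 ± 0.27, adjusted p = 0.0231). Its call was lost without 1 µg/ml replicate 1 (0.181), 1 µg/ml replicate 2 (0.105) or 10 µg/ml replicate 1 (0.179). IFIT1 stood at 0.22 and 0.524 CPM against 2.54 and 1.6 CPM (2.41 ± 0.51, adjusted p = 0.0198). It lost its call without the same 3 libraries (0.165, 0.094 and 0.213, in that order).

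**Figure D2:**
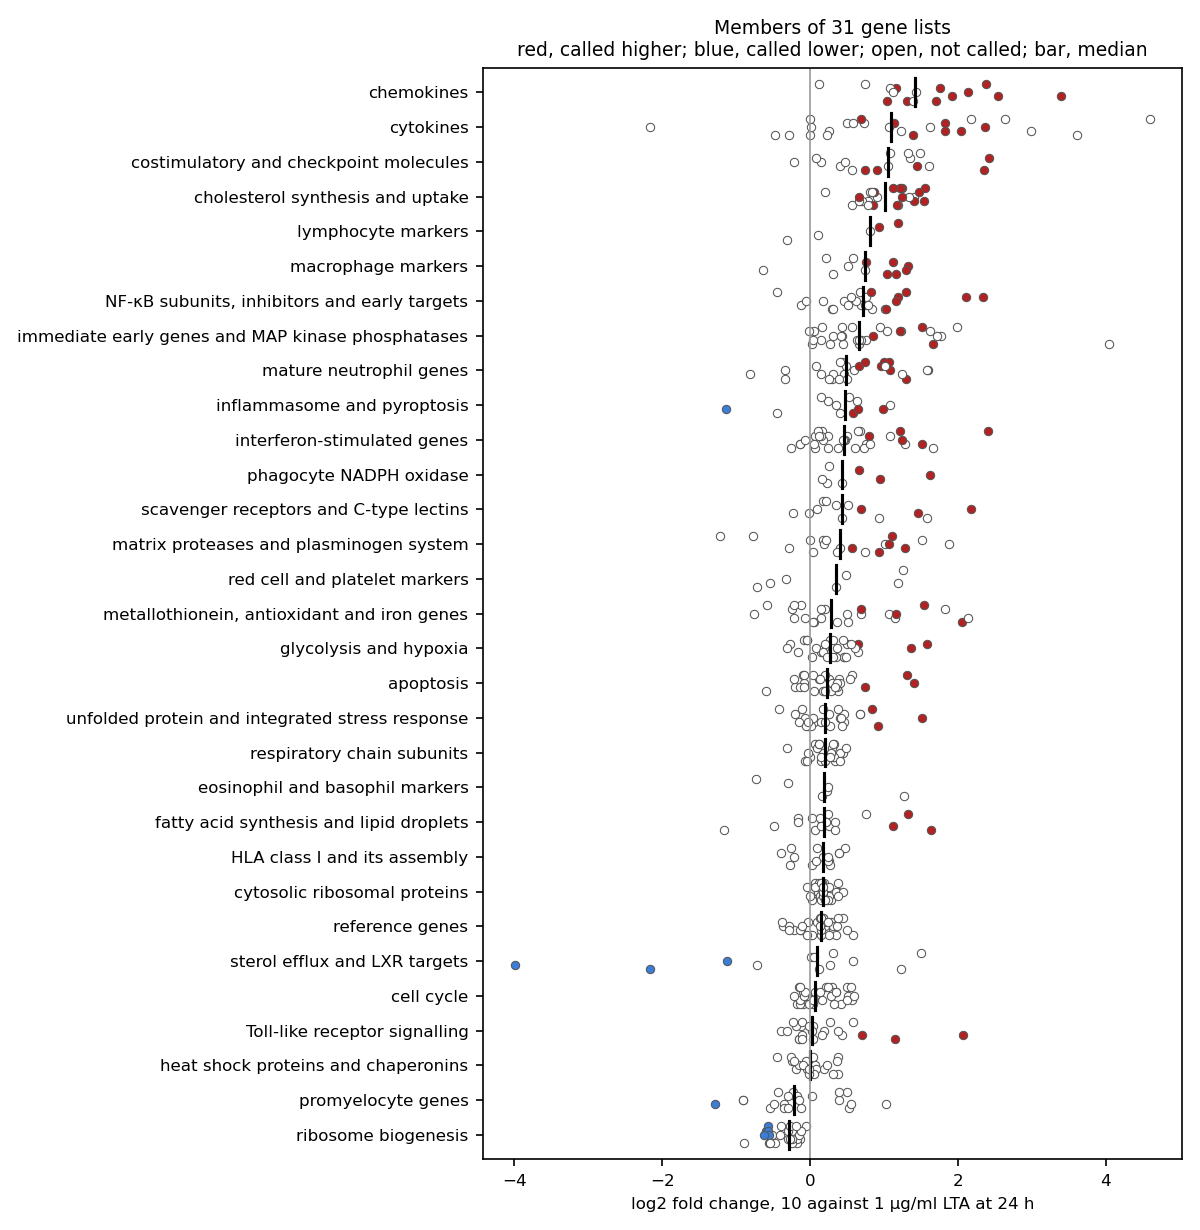
Log2 fold change, 10 against 1 µg/ml LTA at 24 h, of every tested member of 31 gene lists with at least 5 tested members, ordered by median (black bar), with members called higher in red and called lower in blue. Chemokines lead with a median of 1.41, cholesterol synthesis and uptake has a median of 1.01, and ribosome biogenesis is lowest with a median of -0.28 and 6 members called lower.

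Cholesterol synthesis was the group with the most called members. Cells build cholesterol from acetyl-CoA through mevalonate and squalene, take it up from lipoproteins, and export it through ABCA1 and ABCG1. SREBF2 encodes the factor that switches on synthesis and uptake when sterols are low, and LXR receptors switch on export when they are high. Of 24 tested genes of cholesterol synthesis and uptake, 12 were higher (50%) and 0 lower, all 24 differences were positive and the median was 1.01. The calls of ACAT2, MVD, FDPS, LSS, TM7SF2, DHCR7 and HSD17B7 held without each of the 4 libraries, so that 7 of the 38 genes of that kind belong to this list. The list's count was 7 without 1 µg/ml replicate 1, 8 without 1 µg/ml replicate 2, 7 without 10 µg/ml replicate 1 and 12 without 10 µg/ml replicate 2.

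Steps from the start to the end of the pathway were represented. ACAT2, the thiolase that makes acetoacetyl-CoA, stood at 88.3 and 106 CPM with 1 µg/ml, at 268 and 270 CPM with 10 µg/ml and at 56.6 and 53.9 CPM untreated (1.47 ± 0.17, adjusted p = 0.000637). MVD (chromosome 16, 88651940 to 88663091), mevalonate diphosphate decarboxylase, stood at 42.8 and 55.6 CPM with 1 µg/ml, at 146 and 144 CPM with 10 µg/ml and at 27.8 and 29.7 CPM untreated (1.56 ± 0.17, adjusted p = 0.000387). FDPS (chromosome 1, 155308866 to 155320665), farnesyl diphosphate synthase, stood at 202 and 219 CPM with 1 µg/ml, at 600 and 510 CPM with 10 µg/ml and at 166 and 167 CPM untreated (1.40 ± 0.14, adjusted p = 0.000251). For these 3 enzymes the 1 µg/ml libraries lay nearer to the untreated than to the high-dose libraries. Against untreated cells at 24 h, 21.2% of all genes tested were called with 1 µg/ml (13.9% higher, 7.26% lower) and 42.6% with 10 µg/ml (23.6% higher, 19% lower). The difference of 1 µg/ml from untreated cells was 0.34 ± 0.14 for FDPS (adjusted p = 0.106), 0.78 ± 0.17 for MVD (adjusted p = 0.00536) and 0.81 ± 0.17 for ACAT2 (adjusted p = 0.00429). With 10 µg/ml it was 1.74 ± 0.14, 2.33 ± 0.17 and 2.28 ± 0.18, in the same order, and these 2 comparisons share the untreated libraries. TM7SF2, a sterol C14-reductase, stood at 11.4 and 15.9 CPM with 1 µg/ml, within the range of untreated cells or below it (13.9 and 17.5 CPM), and at 42.5 and 36.9 CPM with 10 µg/ml (1.53 ± 0.20, adjusted p = 0.00106). LSS, lanosterol synthase, went from 159 and 189 CPM to 433 and 392 CPM (1.25 ± 0.17, adjusted p = 0.00192).

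SREBF2 stood at 310 and 272 CPM against 476 and 446 CPM (0.66 ± 0.14, adjusted p = 0.0193). That call was lost without 1 µg/ml replicate 1 (0.0596), 1 µg/ml replicate 2 (0.195) or 10 µg/ml replicate 1 (0.188). TCACNCCAC (N, any base), the core of a sterol regulatory element, was searched on both strands. Among 18 promoters of the list it was found in that of SREBF2 alone (5.56%), against 1.13% of all promoters. It was also found in 1.06% of promoters of genes tested, 6 of 270 called higher (2.22%) and 2 of 80 called lower (2.5%). Another motif searched, CACGTG, was found in 10.3% of promoters of genes tested, 26 of 270 called higher (9.63%) and 16 of 80 called lower (20%). These shares were not tested. The 250 bases before the start of SREBF2 (chr22:41832855-41833104, plus strand) are shown with the match to TCACNCCAC in capitals, chosen after the gene's values were seen.
SREBF2: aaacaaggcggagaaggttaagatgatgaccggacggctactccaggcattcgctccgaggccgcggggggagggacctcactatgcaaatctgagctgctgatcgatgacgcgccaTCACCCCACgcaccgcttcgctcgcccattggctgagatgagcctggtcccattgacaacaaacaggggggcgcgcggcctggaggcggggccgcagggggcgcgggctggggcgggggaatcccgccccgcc

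The export side went the other way in 3 genes. Of 12 tested genes of sterol efflux and other LXR targets, 0 were higher and 3 lower (25%), ABCA1, ABCG1 and MYLIP, with a median of 0.09. ABCA1 (chromosome 9, 104781006 to 104928155), the transporter that loads cholesterol onto apolipoprotein A-I, stood at 23.2 and 27.2 CPM with 1 µg/ml, at 3.05 and 7.95 CPM with 10 µg/ml and at 9.1 and 7.35 CPM untreated. It was 4.49-fold lower with the larger dose (-2.17 ± 0.33, adjusted p = 0.00334), the single fall among the 38 genes, with -1.67 without 10 µg/ml replicate 1 and -3.04 without 10 µg/ml replicate 2. Against untreated cells ABCA1 differed by 1.61 ± 0.31 with 1 µg/ml (adjusted p = 0.00233) and by -0.56 ± 0.34 with 10 µg/ml (adjusted p = 0.205). ABCG1, a partner transporter, had 22 counts in the 2 libraries with 1 µg/ml and 1 count in the 2 with 10 µg/ml, a ratio of 0.0502 (95% exact binomial interval 0.00122 to 0.311, counting error only). Its fitted call (adjusted p = 0.0349) was lost without any 1 of the 4 libraries (0.0508 to 0.272). MYLIP, a ubiquitin ligase that limits lipoprotein uptake, stood at 13.9 and 13.8 CPM against 6.1 and 6.55 CPM (-1.13 ± 0.27, adjusted p = 0.0374), also not called without any 1 of the 4 (0.0661 to 0.241). The LXR gene NR1H3 (0.01) and the LXR targets SREBF1 (0.27), SCD (0.58) and FASN (0.05) were not called.

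**Figure D3:**
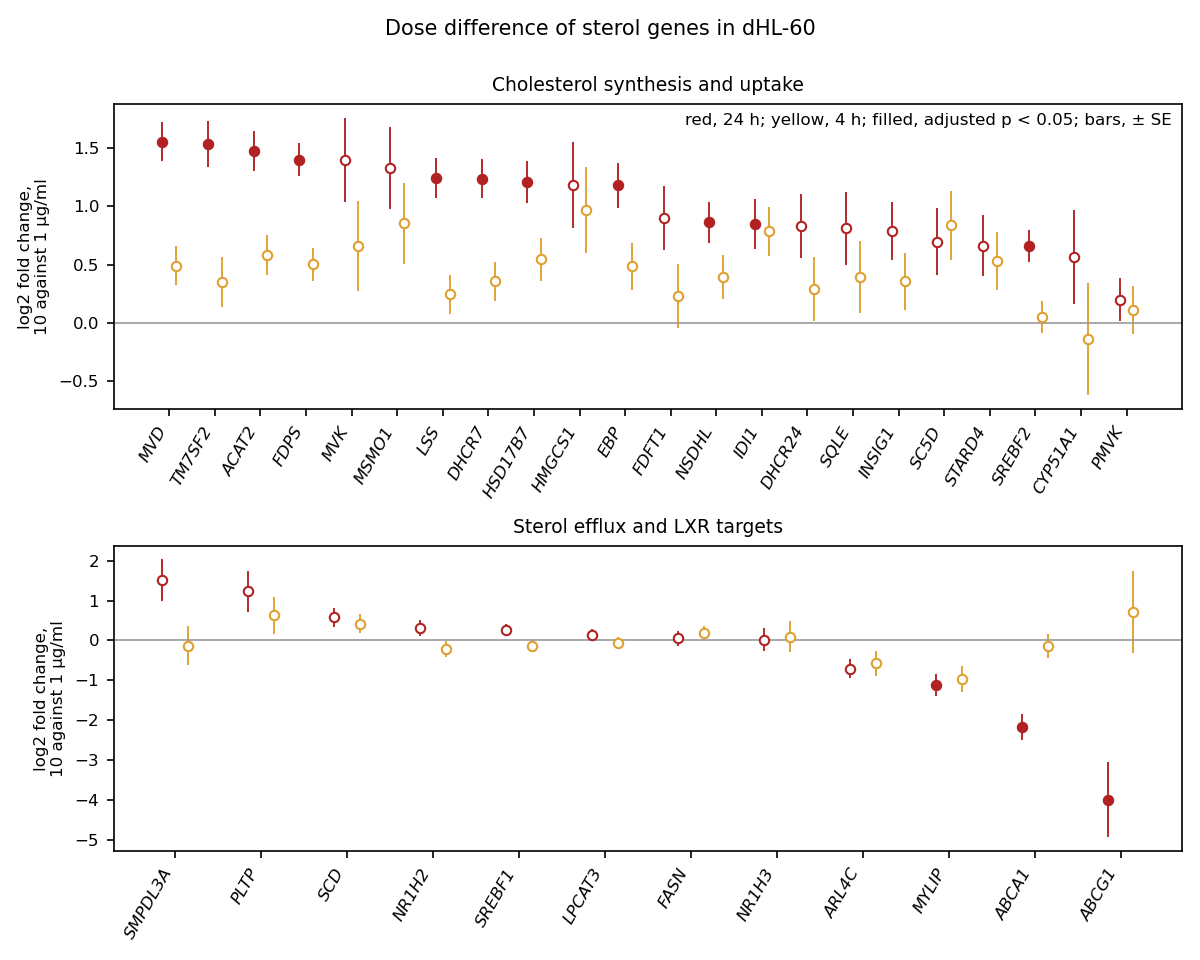
Log2 fold change ± SE, 10 against 1 µg/ml LTA, of 22 of the 24 tested genes of cholesterol synthesis and uptake (top) and the 12 tested genes of sterol efflux and LXR targets (bottom), with 24 h in red, 4 h in yellow and filled points for an adjusted p under 0.05. All 22 synthesis and uptake genes shown lie above 0 at 24 h and 21 of them at 4 h, where no point is filled, and ABCA1, ABCG1 and MYLIP are the filled points below 0.

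Of 18 tested fatty acid genes, 3 were higher (16.7%) and 0 lower, with a median of 0.19. The count was 1 without 1 µg/ml replicate 1 or replicate 2, and 2 without 10 µg/ml replicate 1 or replicate 2. FADS2 and FADS1, the desaturases of polyunsaturated fatty acids, and ACSL1, which activates fatty acids, were the called members. FADS2 stood at 43.2 and 66 CPM with 1 µg/ml, at 162 and 178 CPM with 10 µg/ml and at 14.6 and 14.3 CPM untreated (1.64 ± 0.28, adjusted p = 0.00596; 0.0695 without 1 µg/ml replicate 1). The 2 high-dose libraries lay above both others. FADS1 (1.33, adjusted p = 0.0435) lost its call without any 1 of the 4 libraries (0.0872 to 0.284), with DESeq2 and with upper-quartile scaling, and ACSL1 (1.12, adjusted p = 0.00418) without 1 µg/ml replicate 2 (0.0899). FASN, ACACA (0.07) and ACLY (0.25), the enzymes that make fatty acids, were not called.

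Some of the other genes called in all 4 fits without a library encode surface receptors and secreted proteins of myeloid cells, while others, among them SERPINB9, CDKN1A and MT1F, do not. TREM1, a receptor that amplifies inflammatory signals on neutrophils and monocytes, stood at 3.3 and 4.26 CPM with 1 µg/ml, at 16.3 and 17.9 CPM with 10 µg/ml and at 1.06 and 1.18 CPM untreated (2.17 ± 0.19, 4.51-fold, adjusted p = 0.00016). ADGRG3, an adhesion receptor of granulocytes, stood at 1.25 and 0.787 CPM with 1 µg/ml, at 6.69 and 7.46 CPM with 10 µg/ml and at 0.586 and 0.514 CPM untreated (2.80 ± 0.30, 6.98-fold, adjusted p = 0.000387). RETN, which encodes resistin, C3AR1, the receptor of complement C3a, and TNFRSF1B, a receptor of TNF, belong here too and were picked after their values were seen. RETN stood at 80.6 and 80.4 CPM with 1 µg/ml and at 250 and 220 CPM with 10 µg/ml (1.55 ± 0.18). C3AR1 stood at 75.7 and 67.4 CPM against 182 and 170 CPM (1.30 ± 0.16). TNFRSF1B stood at 613 and 640 CPM against 1164 and 1221 CPM (0.93 ± 0.13). In each of these 5 genes the doses lay well apart. The replicates of a dose lay close together for RETN, C3AR1 and TNFRSF1B. The 1 µg/ml replicates lay less close for ADGRG3 (1.25 and 0.787 CPM) and TREM1 (3.3 and 4.26 CPM). SERPINB9, an inhibitor of granzyme B, had 0 counts in both untreated libraries and stood at 2.42 and 0.983 CPM with 1 µg/ml and at 11.5 and 7.95 CPM with 10 µg/ml (2.52 ± 0.35, adjusted p = 0.0026). CDKN1A, the cell cycle inhibitor p21, stood at 43.5 and 36.3 CPM with 1 µg/ml, at 109 and 89.2 CPM with 10 µg/ml and at 2.71 and 2.72 CPM untreated (1.31 ± 0.15, adjusted p = 0.000637). Among 35 cell cycle genes 0 were called, with a median of 0.07, and 4 were higher without 10 µg/ml replicate 2. MT1F, a metallothionein whose reads can be shared with its close paralogs, rose 4.16-fold, from 4.7 and 6.1 CPM to 24.8 and 20.3 CPM (2.06 ± 0.26, adjusted p = 0.00106).

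Neutrophil genes were higher with 10 µg/ml in part. Of 26 tested mature neutrophil genes 8 were higher (30.8%) and 0 lower, with a median of 0.49, and the list's summed level was 9532 to 9554 CPM with 1 µg/ml and 16460 to 17768 CPM with 10 µg/ml. S100A9, a subunit of calprotectin, stood at 2705 and 2788 CPM with 1 µg/ml, at 6312 and 5232 CPM with 10 µg/ml and at 468 and 446 CPM untreated (1.07 ± 0.18, adjusted p = 0.00599). Its call was lost without 1 µg/ml replicate 1 (0.0532), 1 µg/ml replicate 2 (0.0899) or 10 µg/ml replicate 1 (0.0745). CEACAM3, a granulocyte receptor for bacteria, stood at 26.6 and 17.5 CPM against 76.1 and 56.5 CPM (1.59 ± 0.23, adjusted p = 0.0026; 0.0595 without 1 µg/ml replicate 2). C5AR1, the receptor of complement C5a, stood at 141 and 109 CPM against 284 and 216 CPM (1.00 ± 0.16, adjusted p = 0.00455; 0.096 without 1 µg/ml replicate 2 and 0.0609 without 10 µg/ml replicate 1). The formyl peptide receptor FPR1, S100A8, S100A12, PADI4 and FCGR1A were the other called genes, while the integrin genes ITGAM (0.29) and ITGB2 (0.45) and the receptor CSF3R (0.26) were not. Of 7 NADPH oxidase genes 3 were higher (42.9%), among them NCF1 and RAC2, with NCF1 uncertain because of its near-identical pseudogenes. That count was 1 without 1 µg/ml replicate 1, 0 without 1 µg/ml replicate 2 or 10 µg/ml replicate 1, and 3 without 10 µg/ml replicate 2. The neutrophil count was 4 without 1 µg/ml replicate 1, 0 without 1 µg/ml replicate 2, 2 without 10 µg/ml replicate 1 and 7 without 10 µg/ml replicate 2.

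Markers of other cell types were measured beside these. Summed macrophage markers stood at 849 to 1216 CPM with 1 µg/ml and 1758 to 2680 CPM with 10 µg/ml. Among them CSF1R (0.31) and ADAMDEC1 (0.21) were not called. GPNMB went the other way and was not called either, at 12.5 and 12.1 CPM against 7.03 and 8.71 CPM (-0.64 ± 0.26, adjusted p = 0.17). Of 12 tested macrophage markers of 22 listed, 6 were higher (50%), among them SPP1, VSIG4, CES1, CHI3L1 and C1QA. That count was 3 without 1 µg/ml replicate 1, 1 without 1 µg/ml replicate 2, 0 without 10 µg/ml replicate 1 and 5 without 10 µg/ml replicate 2. Summed lymphocyte markers stood at 1099 to 1176 CPM against 1231 to 1456 CPM, with NKG7 and IL7R called of 5 tested (0 without 1 µg/ml replicate 2 and 1 without each of the other libraries), and summed promyelocyte genes at 11284 to 15928 CPM against 9895 to 11981 CPM. Most of the lymphocyte sum was CD4, at 1015 and 976 CPM with 1 µg/ml, 1149 and 993 CPM with 10 µg/ml and 870 and 973 CPM untreated. CD4 was not called (0.11 ± 0.14, adjusted p = 0.699), and CD2 and CD79A stood at no more than 1.86 CPM in each of the 4 libraries. Eosinophil and basophil markers and red cell and platelet markers gave 0 calls. The part of any change in cell makeup in the gene differences above was not tested.

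Several smaller groups rose by a few members each. The costimulatory and checkpoint list had 5 of 17 higher (29.4%; CD40, CD48, CD70, SLAMF7 and TNFRSF4), and matrix proteases and the plasminogen system 5 of 19 (26.3%; PLAUR, SERPINB2, TIMP1, MMP14 and MMP2). CD70 rested on 30 counts with 10 µg/ml and 6 with 1 µg/ml in 2 libraries each. Antioxidant, metallothionein and iron genes had 4 of 24 higher (16.7%; among them MT1F, FTH1 and NQO1), and immediate early genes 4 of 30 (13.3%; DUSP5, MAFF, ATF3 and IER5). FTH1, the ferritin heavy chain, was the most abundant of them, at 4817 and 3879 CPM with 1 µg/ml and 15565 and 9765 CPM with 10 µg/ml (1.54 ± 0.23, adjusted p = 0.00293; 0.071 without 1 µg/ml replicate 2). Reads of FTH1 can be shared with its pseudogenes. Of 12 inflammasome genes 3 were higher (25%), CARD16, CASP4 and CASP1, and 1 was lower (8.33%), the sensor NLRP1, at 11.2 and 12.9 CPM against 3.9 and 6.83 CPM (-1.15 ± 0.26, adjusted p = 0.0282). The NLRP1 call was lost without 1 µg/ml replicate 1 (0.0801), 1 µg/ml replicate 2 (0.189) or 10 µg/ml replicate 1 (0.284). The higher count of the inflammasome list was 0 without 1 µg/ml replicate 2 or 10 µg/ml replicate 1, and CASP1 lost its call without any 1 of the 4 libraries (0.057 to 0.268). Without 1 µg/ml replicate 2, 0 members were called in the costimulatory, matrix and immediate early lists and 1 in the antioxidant list. Without 10 µg/ml replicate 1, 0 were called in the costimulatory and immediate early lists and 2 each in the matrix and antioxidant lists, and without 1 µg/ml replicate 1 the counts of costimulatory, matrix, immediate early and antioxidant genes were 4, 3, 2 and 3. Cytosolic ribosomal proteins (30 genes), respiratory chain subunits (27), HLA class I genes (15), heat shock proteins and chaperonins (22) and reference genes (33) gave 0 calls in either direction. The reference genes were not flat as a sum, at 42937 and 45336 CPM with 1 µg/ml and 58716 and 56221 CPM with 10 µg/ml. Their median difference was 0.15, against 0.0017 over all genes tested.

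Ribosome biogenesis had the lowest median of the lists. Of its 28 genes, which transcribe and process ribosomal RNA in the nucleolus, 0 were higher and 6 lower (21.4%), all 28 differences were negative and the median was -0.28. NOLC1, a nucleolar chaperone, stood at 339 and 348 CPM with 1 µg/ml, at 230 and 236 CPM with 10 µg/ml and at 369 and 370 CPM untreated (-0.56 ± 0.12, adjusted p = 0.0185). The replicates of each dose lay close together. POLR1B, a subunit of RNA polymerase I, stood at 60.2 and 66.5 CPM against 39.8 and 45.3 CPM (-0.57 ± 0.13, adjusted p = 0.0334). HEATR1, WDR12, UTP20 and MYBBP1A were the other called genes. The differences were small, and 0 members were called without 1 µg/ml replicate 1, without 1 µg/ml replicate 2 or without 10 µg/ml replicate 1, and 4 without 10 µg/ml replicate 2, while the median stayed between -0.38 and -0.24.

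Other genes that fell included KIT, the receptor of stem cell factor on immature myeloid cells, at 22.4 and 16.5 CPM with 1 µg/ml, 6.27 and 9.55 CPM with 10 µg/ml and 71.8 and 71.9 CPM untreated. It was 2.43-fold lower with the larger dose (-1.28 ± 0.21, adjusted p = 0.00449; 0.051 without 10 µg/ml replicate 1). ALDH5A1, a mitochondrial aldehyde dehydrogenase, stood at 12.3 and 13.8 CPM against 5.17 and 6 CPM (-1.22 ± 0.18, adjusted p = 0.00306; 0.0582 without 1 µg/ml replicate 2). For both genes the untreated libraries were the highest. F13A1, coagulation factor XIII subunit A, had discordant 1 µg/ml libraries, at 27.1 and 71.7 CPM against 8.64 and 18.8 CPM (-1.84 ± 0.44, adjusted p = 0.0356). Its difference was -0.97 and not called without 1 µg/ml replicate 2 (adjusted p = 0.294), and -1.41 without 10 µg/ml replicate 1 (adjusted p = 0.31). Of 22 promyelocyte genes KIT was the 1 called (4.55%), and MPO stood at 5666 and 8087 CPM against 4234 and 5239 CPM (-0.54 ± 0.22, adjusted p = 0.169).

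At 4 h the same 2 doses differed by 1 gene out of 11866. HBB, which encodes β-globin, was higher with 10 µg/ml (0.00843%), and 0 genes were lower in edgeR's test, with 78 higher and 138 lower at an unadjusted p under 0.05. DESeq2 called 2 higher and 0 lower. HBB stood at 0.491 and 0.155 CPM with 1 µg/ml, at 20.8 and 23.4 CPM with 10 µg/ml and at 32 and 34.4 CPM in untreated cells at 4 h. It was thus the 1 µg/ml libraries at 4 h that stood apart, with 6 counts against 462 at the larger dose. At 24 h HBB stood at 1.03 and 1.31 CPM with 1 µg/ml and at 0.593 and 0.976 CPM with 10 µg/ml (-0.55 ± 0.38, adjusted p = 0.412), and had 0 counts in the untreated libraries. HBA2, also on the red cell list, was not called at 4 h, with 0 counts with 1 µg/ml, 13 with 10 µg/ml and 26 untreated.

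The doses at 4 h came from other libraries than those at 24 h, so the 2 contrasts can be set side by side. The 359 genes higher at 24 h had a median dose difference of 0.08 at 4 h, and 238 of them were positive, against a median of 0.01 and 6389 positive of 11866 over all genes tested. For the 94 lower genes the median at 4 h was -0.0032. Across all genes tested the 2 contrasts had a Pearson correlation of 0.0094 and a Spearman correlation of 0.023, a description over genes, which are not independent replicates. Cholesterol genes had a median of 0.49 at 4 h with 23 of 24 positive, chemokines 0.29 with 15 of 16, cytokines 0.25 with 20 of 26 and NF-κB genes 0.07 with 17 of 24, each with 0 called. IL1B, for example, stood at 6494 and 5994 CPM with 1 µg/ml and at 7776 and 8109 CPM with 10 µg/ml at 4 h, a difference of 0.35 ± 0.29.

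The difference between the 2 contrasts was tested as an interaction, the dose difference at 24 h minus that at 4 h. It was positive and called for 21 genes (0.177%) and negative for HBB alone, 0.185% of all genes together, and 20 of these 22 were among the 453 genes called at 24 h. UPB1, an enzyme of pyrimidine breakdown, stood at 146 and 114 CPM with 1 µg/ml and at 137 and 147 CPM with 10 µg/ml at 4 h. At 24 h it stood at 1.69 and 1.64 CPM with 1 µg/ml and at 11.9 and 8.43 CPM with 10 µg/ml. The doses were alike in level at 4 h, and after the fall to 24 h the larger dose was 6.06-fold higher (interaction 2.47 ± 0.30, adjusted p = 0.00679). SRC, a tyrosine kinase, followed the same course, from 354 and 315 CPM against 367 and 336 CPM at 4 h to 22.1 and 18.7 CPM against 64.2 and 63.9 CPM at 24 h (interaction 1.58 ± 0.20, adjusted p = 0.00723). CD82, a tetraspanin, had 654 and 611 CPM against 642 and 630 CPM at 4 h and 40.1 and 34.1 CPM against 112 and 97.8 CPM at 24 h (interaction 1.49 ± 0.20, adjusted p = 0.00835). SEMA6B, a semaphorin, had the opposite sign at 4 h, with 136 and 139 CPM against 88.5 and 115 CPM (-0.43 ± 0.16, adjusted p = 1), and 33.1 and 28.2 CPM against 74.1 and 72.8 CPM at 24 h (interaction 1.69 ± 0.23, adjusted p = 0.00835). TREM1 gave an interaction of 1.87 ± 0.24 (adjusted p = 0.00723) and CCL7 one of 2.004 ± 0.28 (adjusted p = 0.00924).

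CD14 followed another course: its level with 10 µg/ml was 641 and 732 CPM at 4 h and 1375 and 1232 CPM at 24 h, while with 1 µg/ml it was 751 and 723 CPM at 4 h and 564 and 615 CPM at 24 h (interaction 1.25 ± 0.21, adjusted p = 0.035). All 21 positive interaction calls were lost without 1 µg/ml replicate 2 at 24 h and without 10 µg/ml replicate 1 at 4 h. For UPB1, TREM1, SRC, CD82 and SEMA6B the adjusted p then lay between 0.0507 and 0.085, and CCL7 also lost its call without 1 µg/ml replicate 1 at 24 h (0.0689). HBB kept its call without each of the 8 libraries in turn. A call at 24 h and none at 4 h does not by itself show that the doses differed more at the later time, and for the cholesterol genes FDPS (0.90 ± 0.20, adjusted p = 0.106) and MVD (1.07 ± 0.24, adjusted p = 0.106) the interaction was not called.

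**Figure D4:**
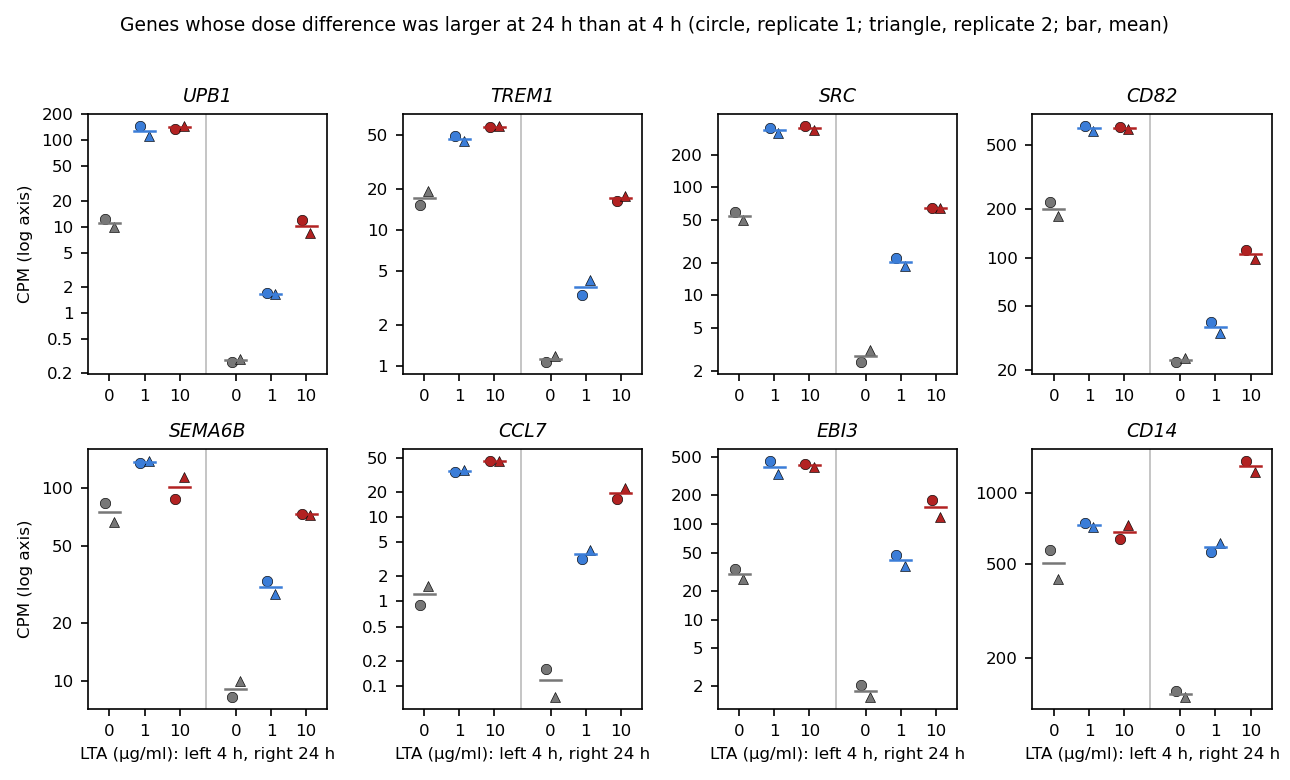
Level of 8 genes with a called interaction of dose and time in dHL-60, in CPM on a log axis, against LTA dose in µg/ml, with 4 h on the left and 24 h on the right of each panel, 1 point per library (circle, replicate 1; triangle, replicate 2) and a bar at the group mean. At 4 h the 2 doses lie close together for CD82 (654 and 611 against 642 and 630 CPM). The 10 µg/ml libraries lie above at 4 h for CCL7 (34.5 and 36.1 against 45.7 and 46 CPM) and below for SEMA6B. At 24 h the libraries with 10 µg/ml lie above those with 1 µg/ml in all 8 panels.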

How the data were processed

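RNA was measured in 16 libraries of HL-60, of which the 12 of dHL-60 (6 groups of 2, taken from the sample titles) were used. The authors deposited raw counts, as whole read numbers for each gene symbol in each library, with no normalization. Per the labels' protocols, libraries were made from total RNA with a stranded mRNA kit. Build GRCh38 stands in the submitters' processing notes, beside the tools HISAT2 (2.1.0), fastp (0.20.0), edgeR (3.36.0), DESeq2 (1.28.0) and Subread's featureCounts (2.0.1), whose roles those notes leave out here. Annotation and strand setting of the counting are not given in the sources used here. Genes that overlap, antisense genes and genes with a near-identical copy are therefore uncertain.

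Of 23575 symbols, 23283 matched RefSeq (GRCh38.p14), which gave coordinates and promoters, and 11866 passed edgeR's filterByExpr over the 6 groups. Differences were tested with edgeR 4.0.16 in R 4.3.3 (quasi-likelihood F test, two-sided, TMM scaling) as contrasts of group means, with Benjamini-Hochberg adjustment over all 11866 genes and a threshold of 0.05. All adjusted p-values are of this edgeR test, except where a different tool is given. SE is the log2 fold change divided by the square root of F. Each library's total was 9653374 to 16530277 counts, and counting intervals cover counting error only. In simulated counts for the comparison of doses at 24 h, over 11866 genes, the test recovered 76% of 100 genes changed by 1 on the log2 scale and 89% of 100 changed by 2, with 9 false calls. Each gene was drawn independently there, with no deviation shared by the genes of a library. These figures therefore cannot be carried over to the measured libraries, where the calls leaned on single libraries.

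The 34 gene lists were described by counts and medians, without a set test, and 2 of them, for histone genes and for transcripts of the mitochondrial genome, had 0 members in the table and gave no result. The groups compared, the lists and the tests were chosen with earlier results of these data known. The naming rule took the 12 called genes with the largest change in each direction at 5 CPM or more without overlap, the 3 called members of smallest p in each list, the 6 leading interaction genes and the 5 leading genes at 4 h in each direction, and TLR2, TLR1, TLR6, CD14 and MYD88. It gave 89 genes. Other genes named as single results, and list members named beyond those 3, were chosen after their values were seen or to account for a list's calls. Alternatives were RLE and upper-quartile scaling, no filter, DESeq2 1.42.0, limma-voom (limma 3.58.1), a fit of the groups compared alone, a replicate block, and leaving out each library. The 4 libraries of undifferentiated cells were not used. A few list members are counted with their lists but not reported here by name.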

Additional observations from a re-analysis of the deposited data

Results flagged for a closer look

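For 22 genes the dose difference at 24 h differed from that at 4 h by the interaction test of edgeR, with differences of log2 fold changes given here as 24 h minus 4 h. HBB, the β-globin gene, had the single negative value, -6.76, which came from its low level in both 1 µg/ml libraries at 4 h (6 counts against 462 with 10 µg/ml), while at 24 h it had 34 counts with 1 µg/ml and 21 with 10 µg/ml. The chemokines CCL20 (3.08) and CCL7 (2.004), the cytokine subunit EBI3 (1.77) and the kinase gene IRAK2 (1.90) were positive. So were the receptors and membrane proteins ADGRG3 (2.69), TREM1 (1.87), C3AR1 (1.33), CD14 (1.25), CD82 (1.49), SEMA6B (1.69), MCEMP1 (1.93) and FLOT1 (1.39). The remaining positive genes were the enzymes UPB1 (2.47), ECE1 (2.44), TYMP (1.09) and SRC (1.58), the secreted or matrix proteins PDGFA (2.16), RETN (1.46) and LAMB3 (1.29), and C15orf48 (1.60) and IER5L (1.72). ECE1, endothelin-converting enzyme, stood at 121 and 102 CPM with 1 µg/ml and 124 and 108 CPM with 10 µg/ml at 4 h, and at 0.587 and 0.852 CPM against 5.08 and 3.28 CPM at 24 h. Each of the 21 positive genes lost its call when 1 µg/ml replicate 2 at 24 h or 10 µg/ml replicate 1 at 4 h was left out.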

How the results depend on the processing

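The counts of genes past the threshold moved with the setting. For called genes a kept sign says little. Their libraries did not overlap between the 2 doses, so leaving out 1 library could hardly turn it. Of the 89 genes chosen by the naming rule, 85 were called at 24 h and all 85 kept their sign under the 11 alternatives run for them, while 21 also kept their call under each. TLR1 turned from -0.15 to 0.034 without 1 µg/ml replicate 1 at 24 h and to 0.079 without 10 µg/ml replicate 1, and TLR6 from -0.12 to 0.010 and 0.019. Without 10 µg/ml replicate 2 they were -0.44 and -0.29. For the doses at 24 h, higher genes numbered 553 with DESeq2, 771 with no filter on low counts and 587 with only the groups compared, and lower genes 200, 583 and 244, in that order. Leaving out 1 library gave 45 to 392 higher and 2 to 275 lower genes. With a replicate block there were 509 higher and 154 lower genes. The interaction gave 148 higher and 12 lower genes with DESeq2, 308 and 87 with no filter, 46 higher with only the groups compared, 89 and 3 with the replicate block, and 0 to 49 higher and 1 to 8 lower with 1 library left out. At 4 h there were 2 higher genes with DESeq2 and 2 with only the groups compared, 9 higher and 13 lower with no filter, and 0 to 1 lower with 1 library left out. Against untreated cells at 24 h, 1 µg/ml gave 1382 lower genes with only the groups compared, and 919 to 1298 higher and 225 to 485 lower with 1 library left out, and 10 µg/ml gave 1373 to 2015 lower. The leave-one-out fits had fewer samples, and more genes were tested with no filter. The cause of these shifts was not tested.

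The replicate numbers pair no samples by any label: deviations of same-numbered libraries correlated by 0.088 between the doses at 24 h and by 0.207 at 4 h, across genes. For untreated and 10 µg/ml at 24 h the correlation was -0.204, and a block with crossed numbers, chosen after seeing the data, gave 3050 higher and 2553 lower genes against 2841 and 2349 with the block as numbered. The list counts without single libraries were also added after the data were seen. ABCG1, IFIT1, CXCL10, CD70, CCL20 and OSM are among the genes that rested on few counts in at least 1 dose at 24 h. With these low counts and 2 libraries per group, smaller differences may have been missed.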

Other observations

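Some groups not described above rose by 3 members each with 10 µg/ml at 24 h, against 3.03% of all genes tested. Of 32 apoptosis genes 3 were higher (9.38%), CDKN1A, the survival gene BCL2A1 and the death gene BBC3. BCL2A1 stood at 30.6 and 26.4 CPM with 1 µg/ml and at 77.2 and 73.9 CPM with 10 µg/ml (1.41 ± 0.21, adjusted p = 0.00342; 0.0829 without 1 µg/ml replicate 2). BBC3 stood at 9.76 and 8 CPM against 16.2 and 13.5 CPM (0.74 ± 0.17, adjusted p = 0.0339). The BBC3 call was lost without 1 µg/ml replicate 1 (0.0779), 1 µg/ml replicate 2 (0.238) or 10 µg/ml replicate 1 (0.327).

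Of 31 genes of glycolysis and hypoxia 3 were higher (9.68%), the transporters SLC2A6 and SLC16A3 and the aldolase ALDOC. SLC2A6 stood at 56.6 and 38.1 CPM with 1 µg/ml and at 139 and 105 CPM with 10 µg/ml (1.37 ± 0.22, adjusted p = 0.00455; 0.094 without 1 µg/ml replicate 2 and 0.051 without 10 µg/ml replicate 1). That list's count was 0 without either of these libraries and 1 without 1 µg/ml replicate 1. Stress response genes gave 3 of 27 higher (11.1%), TRIB3, CHAC1 and PPP1R15A, and 0 without 1 µg/ml replicate 1 or 10 µg/ml replicate 1. Among 13 scavenger receptors and C-type lectins 3 were higher (23.1%), TREM1, CLEC4E and CLEC5A, and TREM1 was the 1 that held without each of the 4 libraries.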
